A study of Gallus gallus with 3 samples.

Results

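The 67 genes for cytosolic ribosomal proteins were compared between cultured chicken (Gallus gallus) primordial germ cells (PGCs) and embryonic stem cells (ESCs) by RNA sequencing. They were chosen by name from the 16030 genes of the authors' expression table: symbols of the RPL and RPS series plus those of the stalk proteins RPLP0, RPLP1 and RPLP2, without the S6 kinase genes and without genes on chromosome W. By symbol alone, 41 of the 67 were assigned to the large subunit and 26 to the small subunit, spread over 28 chromosomes. A reference list of 79 names for vertebrate ribosomal proteins was matched for 62, namely 37 of 47 in the large and 25 of 32 in the small subunit. The other 5 members, RPS27L, RPL22L1, RPL7L1, RPL26L1 and RPL3L, carry names of paralogs. The reference names without a match under the rule are not analysed here as members.

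The PGC group comprised 2 libraries (replicates 2 and 3) and the ESC group 1 library (replicate 2). PGCs are the embryonic precursors of eggs and sperm, and the ESCs served the study as the cultured counterpart of early somatic cells. No treatment or genetic change was named for either group, and the study's methods call its replicates biological. The age, strain and sex of the source embryos and the number of lines are not given for these libraries in the sources used here. Germ cells and stem cells in culture are not the cells of the embryo, and the comparison rests on a single ESC library.

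A ribosome is built from ribosomal RNA and a set of small basic proteins, most of which are needed in equal numbers in each particle. In vertebrates most of these proteins have a single expressed gene, the genes are among the most highly transcribed in growing cells, and their mRNAs begin with a terminal oligopyrimidine (TOP) tract that couples their translation to growth signals. Ribosome production is known to differ between cell types and to be high in proliferating stem cells. All members passed the count filter, 65 of the 67 had more than 2000 counts in every library, and the lowest single count was 53.

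Total counts per library were between 19754278 and 20568106, and 12701 to 13594 genes had at least 10 counts. Genes of the mitochondrial genome took 4.44% and 6.54% of the counts in the PGC libraries and 10.1% in the ESC library. The labels matched the defining germ cell genes, since DDX4, DAZL, PIWIL1 and MAEL summed to 3570 and 3916 CPM (counts scaled to the size of the library) in PGCs and to 68.5 CPM in ESCs, and all 4 were called higher. The pluripotency genes NANOG, SOX3, LIN28A and LIN28B summed to 253 and 387 CPM in PGCs and 455 CPM in ESCs, with LIN28A and LIN28B called lower and a median log2 fold change of -1.08. Of 6 measured fibroblast markers 3 were called lower and 2 higher in PGCs, with sums of 624 and 734 CPM against 71.7 CPM, most of it COL3A1. Between the PGC libraries these markers differed by -0.50 to 2.67 on the log2 scale (PGC replicate 3 minus PGC replicate 2). ALAS2, the only erythroid marker measured, stood at 16.0 and 17.8 CPM against 47.1 CPM. No neural or endoderm marker had more than 38 counts in any library, and SOX17 was at 0 in the ESC library. Whether other cells or the mitochondrial share had a part in the differences below was not tested. In such bulk RNA, fewer cells of a type and less RNA per cell cannot be told apart.

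Most ribosomal protein mRNAs had lower levels in the PGC libraries than in the ESC library, and part of them passed the test. Of the 67 members, 24 (35.8%) fell at an adjusted p under 0.05, 0 rose and 43 did not pass the test (edgeR quasi-likelihood test, Benjamini-Hochberg adjustment over the 14489 genes tested). Among all genes tested 20.6% were called lower and 21.2% higher. The other 2339 genes with a mean of at least 100 CPM were called lower in 25.6% and higher in 16.0%. That set has a floor only and is not matched to the members in level. At 1000 CPM or more there were 67 of these 2339 genes and 10 of the 67 members. A further 15 members had an adjusted p between 0.05 and 0.1, a range not counted over all genes. An unadjusted p under 0.05 was found for 7467 of the 14489 genes tested, in either direction. Among them were 38 of the 67 members, 0 of them higher in PGCs. DESeq2's Wald test likewise called 0 members higher. With edgeR at an adjusted p under 0.01, 2 of the 67 members were called lower, a smaller share than the 1730 of all 14489 genes. The fit has 1 residual degree of freedom, which comes from the PGC libraries, and the ESC library is assumed to vary as they do.

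The size of the difference was moderate in most members and small in a few. The median log2 fold change of the members was -0.78, with quartiles of -0.92 and -0.52 and a range of -1.59 to 0.81, beside a median of 0.04 over all genes tested and of -0.19 over the other genes with at least 100 CPM. Ratios were also taken library by library (log2 CPM with TMM scaling, a trimmed mean of gene ratios). The median log2 ratio to the ESC library was -0.97 for PGC replicate 2 and -0.61 for PGC replicate 3. Their mean was -0.79 ± 0.25 (SD, n = 2). Both ratios share the ESC library, so this SD holds no spread among ESC libraries. Both PGC libraries lay below the ESC library in 62 of the 67 members, against 44.1% of all genes. The same held for 1269 of the other 2339 genes with at least 100 CPM. Both lay above the ESC library in 2 members, RPS29 and RPL3L, against 45.8% of all genes and 838 of those 2339. RPS6, RPS27 and RPLP1 had 1 PGC library on either side of the ESC library.

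Few members were far from the ESC library. Of all members, 5 (RPS27L, RPL22L1, RPL11, RPL6 and RPL39) were lower by 2-fold or more in both PGC libraries and 0 were higher by as much, where 15.8% of all genes met the first rule and 21.6% the second. Of the other 2339 genes with at least 100 CPM, 285 met the first rule and 209 the second. The count of 2-fold members rested on PGC replicate 3, since 29 members were at least 2-fold lower in PGC replicate 2 taken alone. The same count over all genes is not given here. Scaling also bore on the sizes: with total counts in place of TMM the median log2 ratio of all genes moved from 0.03 to 0.34 and that of the members from -0.79 to -0.47. A scaling factor shifts the genes of a library alike, so it leaves the distance between these medians (-0.82 with TMM) nearly as it is. The distance was -0.64 without PGC replicate 2 and -0.99 without PGC replicate 3, and 62 and 65 of the 67 members then lay below the median of all genes.

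**Figure D1:**
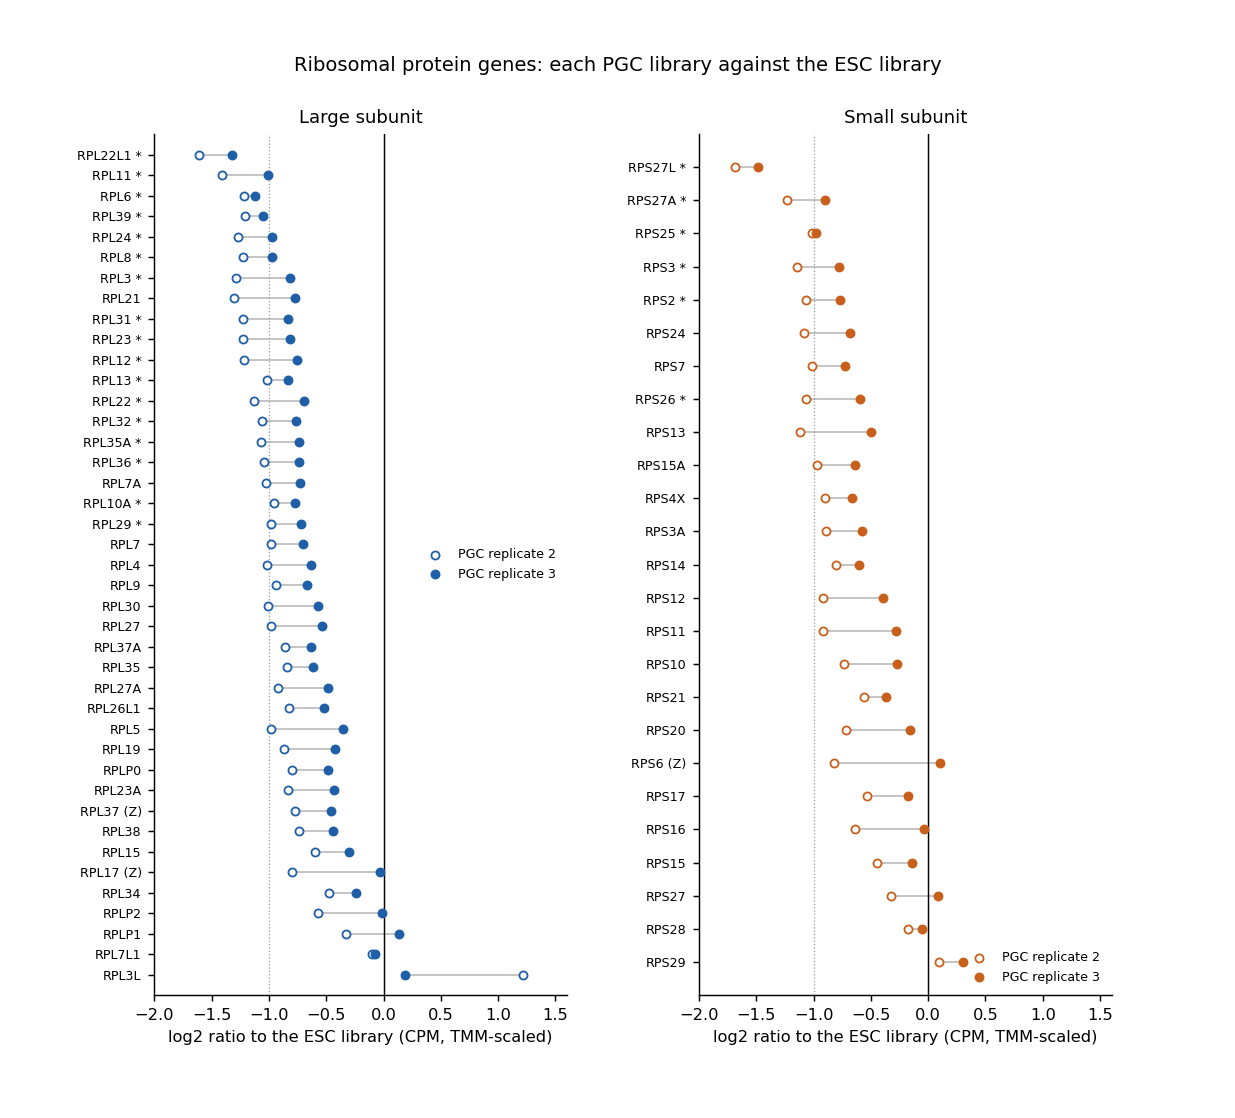
The log2 ratio of TMM-scaled CPM, PGC over ESC, is drawn for 66 ribosomal protein genes, with open circles for PGC replicate 2, filled circles for PGC replicate 3, the large subunit on the left and the small subunit on the right. Asterisks mark the 23 of them called lower (edgeR, adjusted p under 0.05), (Z) marks genes on chromosome Z, the dotted line is a 2-fold lower level, and 61 of the 66 genes have both circles left of 0.

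As a share of all counts, the members took 5.305% of the ESC library (exact 95% interval 5.295 to 5.315%). They took 3.57% of PGC replicate 2, with bounds of 3.56 and 3.58%, and 4.21% of PGC replicate 3, with bounds of 4.20 and 4.22%. These intervals cover counting error only. Both PGC shares were lower than the ESC share, and they differed from each other by more than counting error. The large subunit genes took 2.13%, 2.46% and 3.25%, and the small subunit genes 1.45%, 1.75% and 2.05%, of PGC replicate 2, PGC replicate 3 and ESC replicate 2. With the mitochondrial genome genes left out of the total, the members took 3.74%, 4.50% and 5.90%, in the same order.

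The members of the large subunit had a median log2 fold change of -0.81, with 17 of 41 (41.5%) called lower, and those of the small subunit -0.71, with 7 of 26 (26.9%) called lower. The small subunit share was close to the 25.6% among other genes with at least 100 CPM and to the 20.6% among all genes. Without the 5 paralogs the medians were -0.83 (16 of 37 lower, 43.2%) and -0.70 (6 of 25 lower, 24.0%). The medians of the subunits differed by less than the PGC libraries did within each subunit, where they were -0.98 and -0.67 for the large and -0.91 and -0.54 for the small subunit. No test was made of the difference, because genes are not replicates of a subunit.

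Among the large subunit proteins, RPL11 and RPL5 bind the 5S ribosomal RNA together and are also known to bind MDM2 when ribosome assembly fails. RPL11 (ENSGALG00000030378, galGal5 chr23:5580600-5583706) had 376 and 496 CPM in PGCs and 999.5 CPM in ESCs, on 8420, 10337 and 17748 counts. Its log2 ratios were -1.41 and -1.01, and it fell 2.29-fold (log2 fold change -1.20, edgeR quasi-likelihood adjusted p = 0.0115). RPL5 had 319.5 and 494 CPM in PGCs and 630.2 CPM in ESCs, with log2 ratios of -0.98 and -0.35 and an edgeR quasi-likelihood adjusted p of 0.138. Both partners of the particle thus lay below the ESC library in both PGC libraries, but RPL5 did not pass the test and its PGC libraries differed by 0.63 on the log2 scale.

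RPL6, another large subunit protein, had 815 and 872 CPM in PGCs and 1895 CPM in ESCs (galGal5 chr15:6428446-6441550), log2 ratios of -1.22 and -1.12 and a log2 fold change of -1.17 (edgeR quasi-likelihood adjusted p = 0.0194). RPL39, a very small protein that lines the peptide exit tunnel, had 394 and 442 CPM against 913.5 CPM (galGal5 chr4:16567059-16569428) and a log2 fold change of -1.13 (edgeR quasi-likelihood adjusted p = 0.0111). In both genes the PGC libraries were close to each other and well below the ESC library.

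RPL3 and RPL8, which lie near the peptidyl transferase centre, were among the called genes too. RPL3 had 906 and 1252 CPM in PGCs and 2210 CPM in ESCs, the log2 fold change was -1.03, and its edgeR quasi-likelihood adjusted p of 0.0483 was the closest to the threshold among the calls. RPL8 had 612 and 733 CPM against 1435 CPM, with a log2 fold change of -1.09. RPL24, which takes part in a bridge between the subunits, RPL31, RPL23, RPL12, RPL13, RPL32, RPL22, RPL35A, RPL36, RPL10A and RPL29 were also called lower, with log2 fold changes from -1.11 (RPL24) to -0.85 (RPL29). For RPL31 a caveat applies, since 802 of its 945 annotated bases (84.9%) lie opposite exons of TBC1D8, a gene with 307, 399 and 497 counts where RPL31 had 2608, 3177 and 4835. Whether the counting used strand is not given in the sources used here, so reads of such overlapping genes cannot be told apart.

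The calls did not follow size alone. RPL21, RPL7A, RPS24, RPS7, RPL7 and RPL4 were not called although their log2 fold changes were as low as those of called genes. RPL21, for example, had 1143 and 1660 CPM in PGCs and 2832 CPM in ESCs, a log2 fold change of -1.01 and an edgeR quasi-likelihood adjusted p of 0.0660. Its PGC libraries differed by 0.54 on the log2 scale. Spread between the PGC libraries did not always separate the genes either. RPL7A (log2 fold change -0.87) was not called while RPL36 (-0.88) was, with PGC differences of 0.29 and 0.31. RPL7A had 2121 CPM in ESCs and RPL36 had 249 CPM. The called members had a median of their mean levels of 574 CPM and the members not called one of 641 CPM.

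The stalk proteins, which recruit the elongation factors to the large subunit, differed among themselves. RPLP0, the base of the stalk, had 590.0 and 733 CPM in PGCs and 1028 CPM in ESCs, with log2 ratios of -0.80 and -0.49 (edgeR quasi-likelihood adjusted p = 0.130). RPLP1 had 531 and 728 CPM against 664 CPM, and RPLP2 551 and 811 CPM against 819 CPM. Their log2 fold changes of -0.08 and -0.27 (edgeR quasi-likelihood adjusted p = 0.860 and 0.550) were closer to 0 than that of RPLP0, and the ESC level of RPLP1 lay between those of the PGC libraries. With total counts in place of TMM their mean log2 ratios were above 0, at 0.22 and 0.03. None of the stalk genes passed the test.

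In the small subunit, RPS27A, which is made as a fusion with ubiquitin, had 319 and 401 CPM in PGCs and 748.5 CPM in ESCs and fell 2.08-fold (log2 fold change -1.06, edgeR quasi-likelihood adjusted p = 0.0153). RPS25, RPS2, RPS3 and RPS26 were also called lower, with log2 fold changes from -0.99 (RPS25) to -0.81 (RPS26). RPS2 and RPS3 line the channel by which mRNA enters the small subunit. RPS25 was the called member whose PGC libraries were most alike, at 382 and 390.2 CPM against 770 CPM in ESCs.

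Other small subunit genes showed no such distance. RPS29, a small zinc-binding protein, was at 178 and 205 CPM in PGCs and 166 CPM in ESCs (galGal5 chr5:57721101-57721662), with log2 ratios of 0.10 and 0.30 and an edgeR quasi-likelihood adjusted p of 0.525. RPS27, another zinc-binding protein, was at 197 and 261 CPM against 246 CPM, with an edgeR quasi-likelihood adjusted p of 0.777. Its mean log2 ratio was -0.12 with TMM and 0.20 with total counts. RPS28 had log2 ratios of -0.17 and -0.06. These genes have short gene models, of 356, 255 and 376 bases. The 8 members with models under 500 bases had a median log2 fold change of -0.26 with 3 called lower, and the 26 members of 500 to 1000 bases -0.88 with 14 called lower. The 21 members of 1000 to 2000 bases had a median of -0.68 with 4 called lower, and the 12 members of 2000 to 4000 bases -0.80 with 3 called lower. Calls thus did not rise or fall steadily with length. The other genes of those lengths had medians of 0.08, 0.13, 0.06 and 0.002, and their calls were not counted by length. Over all 67 members the Spearman correlation of the log2 fold change with gene length was -0.09 and with mean log2 CPM -0.17, given as descriptions across genes of the same libraries.

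Members were also set beside other genes within ranges of mean level, without matching levels inside a range. In the range of 100 to 1000 mean CPM, the 55 members had a median log2 fold change of -0.74 (20 called lower) and the other 2272 genes one of -0.18. At 1000 CPM or more, the 10 members had a median of -0.87 (3 called lower) and the other 67 genes one of -0.68. The distance between members and other genes was thus smaller at the highest levels than in the middle range. Calls among the other genes were not counted by range. Of all other genes with at least 100 CPM, 25.6% were called lower.

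**Figure D2:**
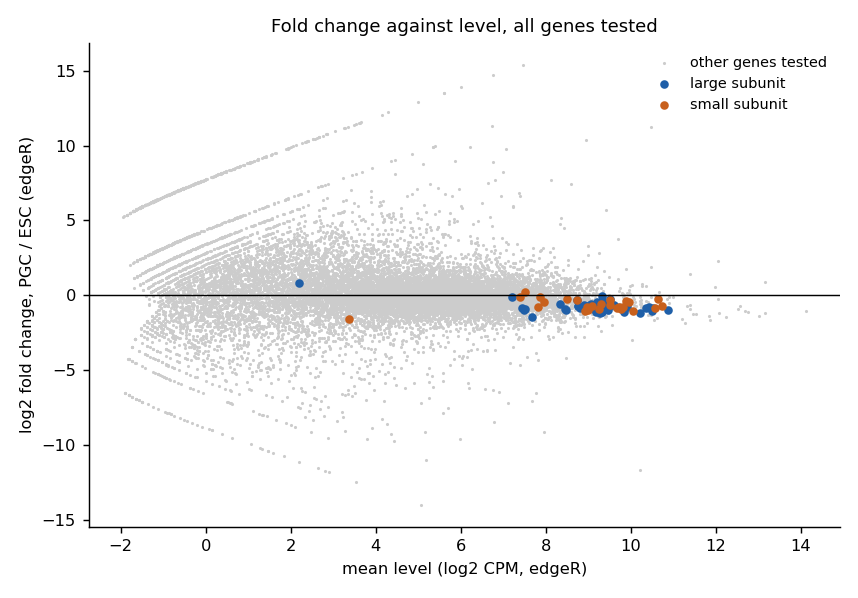
The edgeR log2 fold change of PGCs against ESCs is plotted against the mean level (log2 CPM) for all 14489 genes tested, with large subunit genes in blue, small subunit genes in orange and other genes in grey. All but 2 of the 67 members, RPS29 and RPL3L, lie below 0, most of them at the high end of the level axis.

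The paralogs held both ends of the range. RPS27L (ENSGALG00000034177, galGal5 chr10:4082418-4086399), which in humans is a target of p53, had 129 and 138 counts in PGCs and 332 in ESCs, or 5.76 and 6.62 CPM against 18.7 CPM. It fell 3.02-fold (log2 fold change -1.59, edgeR quasi-likelihood adjusted p = 0.00505), the largest fall of any member. Per length, in TPM (counts divided by gene length and scaled to the same sum in each library), it stood at 20.3 and 20.2 TPM against 44.3 TPM, which was 1.16%, 1.004% and 3.01% of the level of its partner RPS27 in PGC replicate 2, PGC replicate 3 and ESC replicate 2. Its partner did not pass the test.

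RPL22L1 (ENSGALG00000009312, galGal5 chr9:19805323-19807348) is a paralog of RPL22, an RNA-binding protein of the large subunit that ribosomes can lack. It had 117 and 143 CPM in PGCs and 358 CPM in ESCs, and it fell 2.75-fold (log2 fold change -1.46, edgeR quasi-likelihood adjusted p = 0.00142). RPL22 itself had 120 and 163 CPM against 264 CPM and fell 1.86-fold (log2 fold change -0.90, edgeR quasi-likelihood adjusted p = 0.0201). Per length, RPL22L1 stood at 489 and 518 TPM in PGCs and 1006 TPM in ESCs, and RPL22 at 541 and 632 TPM against 797 TPM. The paralog was thus at 90.5% and 81.9% of its partner in the PGC libraries and at 126% in the ESC library, so the order of the pair was opposite in the libraries of the 2 cell types. The difference between their fold changes was not tested. A share of 31.6% of the RPL22 model lies opposite an unnamed gene with at most 83 counts.

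RPL3L, which in mammals replaces RPL3 in ribosomes of striated muscle, was the least abundant member and the one with the highest log2 fold change. It had 158 and 71 counts in PGCs and 53 in ESCs, or 7.06 and 3.41 CPM against 2.98 CPM (galGal5 chr14:6168865-6176221). The log2 ratios were 1.21 and 0.19 (SD 0.73, n = 2), and the edgeR quasi-likelihood adjusted p was 0.267. The excess rested on PGC replicate 2. Per length RPL3L was at 0.843%, 0.295% and 0.146% of RPL3.

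RPL7L1 had 144 and 146 CPM in PGCs and 154 CPM in ESCs, with log2 ratios of -0.10 and -0.08 and an edgeR quasi-likelihood adjusted p of 0.775. With total counts its mean log2 ratio was 0.23. Its partner RPL7 had 951 and 1154 CPM against 1877 CPM and a log2 fold change of -0.83 (edgeR quasi-likelihood adjusted p = 0.0819). Per length, RPL7L1 stood at 21.6%, 18.1% and 11.7% of RPL7. RPL26L1, with 525 and 649 CPM against 931 CPM, had no partner among the members, since RPL26 is not analysed here. How reads that match more than 1 gene were counted is not given in the sources used here, and values of near-identical paralogs are uncertain to that extent.

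Compared per length, the 62 members other than the paralogs ran from 281 TPM (RPL31) to 3221 TPM (RPS20) in PGC replicate 2, from 300.1 TPM (RPS21) to 4099 TPM (RPS20) in PGC replicate 3 and from 302 TPM (RPS21) to 3555 TPM (RPS20) in ESC replicate 2. Their medians were 968, 1021 and 1263 TPM. The most abundant member was thus the same gene in each library, and the span from lowest to highest was 11.5-fold, 13.7-fold and 11.8-fold. The level of RPL31, which sets the span in PGC replicate 2, is uncertain because of its overlap with TBC1D8. RPS20 and RPS10, which stood highest among small subunit genes, belong to the head of the small subunit. Neither was called, with edgeR quasi-likelihood adjusted p of 0.372 and 0.278.

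Of the 100 genes with the highest TPM, 34 and 36 were members in the PGC libraries and 40 in the ESC library. The order of the 62 genes by TPM was much the same in all libraries, with Spearman correlations of 0.929 (PGC replicate 2 with ESC), 0.915 (PGC replicate 3 with ESC) and 0.977 (between the PGC libraries). These are descriptions over genes that share gene lengths and the same counting, and the gene models, which set the lengths, ran from 255 bases (RPS27) to 3561 bases (RPL9). TPM values rest on those models. On this scale 51 of the 67 members lay below the ESC library on average, while the median log2 ratio of all genes was 0.49.

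**Figure D3:**
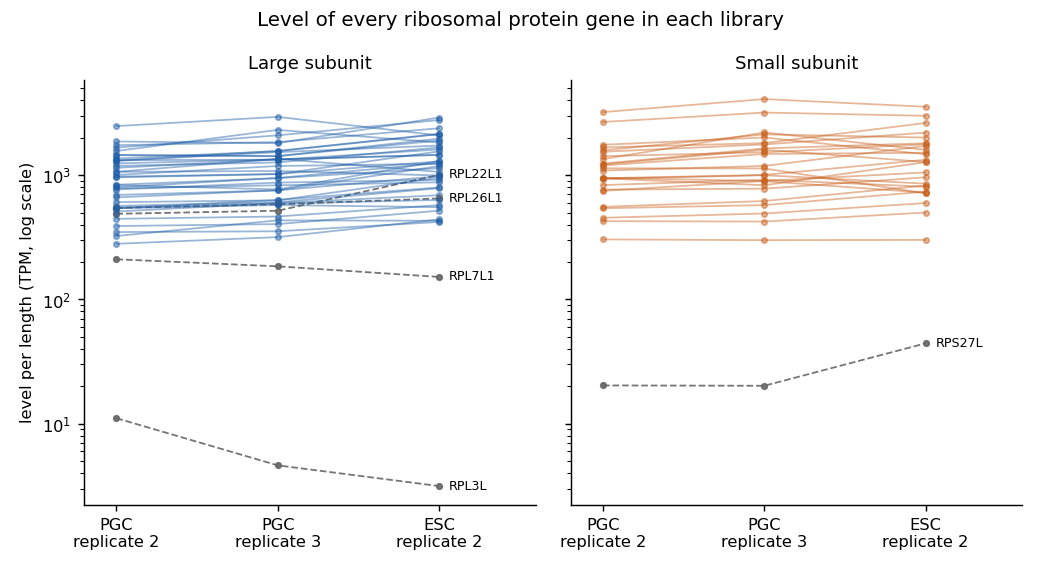
The level per length (TPM, logarithmic axis) of every ribosomal protein gene is drawn in each library, 1 line per gene, with large subunit genes on the left and small subunit genes on the right. Grey dashed lines mark the 5 genes with paralog names, of which RPS27L (20.2 to 44.3 TPM) and RPL3L lie far below all others, and RPL22L1 climbs from 489 TPM to 1006 TPM.

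The PGC libraries differed from each other in a common direction. In 66 of the 67 members PGC replicate 3 was above PGC replicate 2, RPL3L being the exception, against 49.4% of all genes and 69.0% of the other genes with at least 100 CPM. The median difference of the members was 0.32 on the log2 scale, which is under the median distance of PGC replicate 3 from the ESC library, -0.61. The SD of the pair of log2 ratios had a median of 0.23 over members and ran from 0.02 (RPL7L1) to 0.73 (RPL3L). The largest differences, either way, were those of RPL3L (-1.03), RPS6 (0.92) and RPL17 (0.77).

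RPS6 and RPL17 lie on chromosome Z, as does RPL37. In birds males carry Z as a pair and females carry a Z and a W. RPS6, the best known target of S6 kinase, had 23177 and 40882 counts in PGCs and 32473 in ESCs, or 1035 and 1963 CPM against 1829 CPM (galGal5 chrZ:33736457-33741021). Its log2 ratios of -0.82 and 0.10 had opposite signs, and it did not pass the test (edgeR quasi-likelihood adjusted p = 0.625). RPL17 had 433 and 742 CPM against 756 CPM (galGal5 chrZ:1078261-1081587), with log2 ratios of -0.80 and -0.03 and an edgeR quasi-likelihood adjusted p of 0.435.

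RPL37 was at 405 and 505 CPM against 693 CPM (galGal5 chrZ:12918346-12920975), with log2 ratios of -0.78 and -0.46 (edgeR quasi-likelihood adjusted p = 0.119). It was the Z member on which the PGC libraries were closest. None of the 3 Z members was called, while 24 of the 64 others were called lower. Of all 805 Z genes, 64 were called lower and 299 higher, so 0 of 3 lower is near the share on Z. Outside Z and W, 2914 of 13632 genes were called lower and 2748 higher. The median difference between PGC replicates 3 and 2 was 0.77 for the Z members, 0.31 for the other members, 0.42 for 105 other Z genes with at least 100 CPM, and 0.11 for 2234 other genes outside Z and W at that level.

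The sex chromosomes set these libraries apart beyond the ribosomal protein genes. Summed over the 141 W genes, levels without scaling factors were 765, 293 and 136 CPM for PGC replicate 2, PGC replicate 3 and ESC replicate 2, and the share of counts on Z was 3.84%, 4.53% and 2.87%. Z genes as a whole had a median log2 fold change of 0.82 (805 genes) and genes outside Z and W one of 0.00, whereas the Z members had one of -0.36. A W gene annotated as RPL17 (ENSGALG00000040263), outside the members by rule, had 734, 75 and 0 counts. With its counts added, RPL17 had 10437, 15523 and 13420 counts, log2 ratios of -0.70 and -0.02, and a difference between the PGC libraries of 0.68 in place of 0.77. The part of the sex chromosomes in the values of these genes was not tested.

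**Figure D4:**
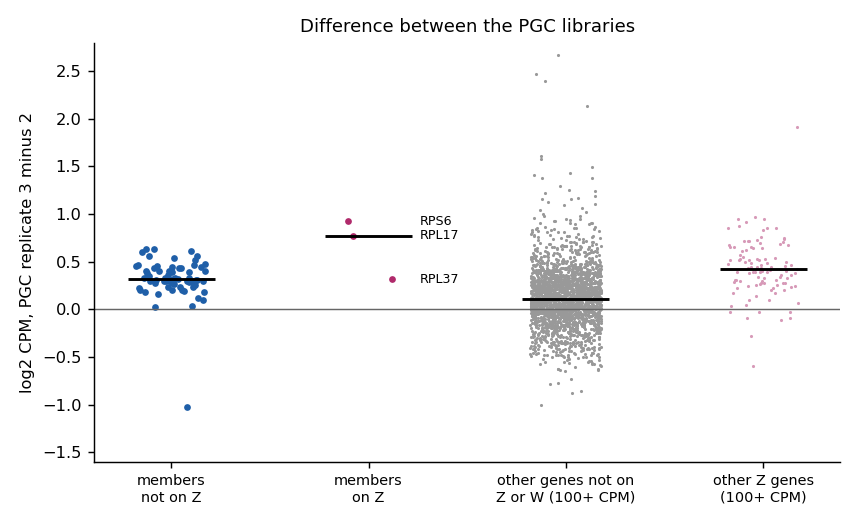
The difference in log2 CPM between PGC replicate 3 and PGC replicate 2 is drawn for each gene, for members outside and on chromosome Z and for other genes with at least 100 mean CPM, with black lines at the medians. Members outside Z sit around 0.31 and other genes outside Z and W around 0.11, and RPS6 and RPL17 reach 0.92 and 0.77.

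The mitochondrial ribosome, a separate particle that translates the mitochondrial genome, is built from nuclear genes of another set. Of 66 such genes 65 passed the filter, of which 32 (49.2%) were called lower and 0 higher, with a median log2 fold change of -0.66, beside 20.6% lower, 21.2% higher and a median of 0.04 over all genes. The lowest called were MRPS6 (log2 fold change -1.57) and MRPL45 (-1.48). The absolute difference between the PGC libraries had a median of 0.13 on the log2 scale over these genes, 0.32 over the cytosolic genes and 0.29 over all genes.

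Other mRNAs with a TOP tract are those of elongation factors and a few further proteins. Of 14 listed, 10 were measured, and all 10 lay below the ESC library in both PGC libraries, as did 44.1% of all genes. Of the 10, 5 (50%) were called lower and 0 higher, beside 20.6% and 21.2% of all genes, with a median log2 fold change of -1.10. The other genes with at least 100 CPM were called lower in 25.6% and higher in 16.0%, with a median of -0.19. Those at 1000 CPM or more had a median of -0.68. The list was not matched to these genes in level. HNRNPA1, an RNA-binding protein, fell by 1.78 on the log2 scale. EEF2, the factor that moves the ribosome along the mRNA, had 17339 and 23596 counts in PGCs and 49556 in ESCs (log2 fold change -1.55, edgeR quasi-likelihood adjusted p = 0.01004). EEF1A1, the most abundant gene of the list, had 4202 and 5492 CPM against 10069 CPM, a log2 fold change of -1.05 and an edgeR quasi-likelihood adjusted p of 0.135.

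Of 33 initiation factor genes 27 were measured, with 14 (51.9%) called lower, 0 higher and a median log2 fold change of -0.68. Among all genes 20.6% were called lower, and among the other genes with at least 100 CPM 25.6%. EIF4G1, the scaffold of the cap-binding complex, fell by 1.65 on the log2 scale and EIF3B, a core subunit of the factor that loads the small subunit, by 1.27. Of 51 ribosome biogenesis genes 39 were measured, with 26 (66.7%) called lower, 0 higher and a median of -1.07. RRS1, which acts in assembly of the 5S particle, had 29 and 18 counts against 82 (log2 fold change -2.09), and UTP20, which acts in processing of the small subunit RNA, 2828 and 3278 counts against 7935 (-1.66). The called genes of both lists were lower in PGCs without exception.

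RNA polymerase I transcribes the large ribosomal RNAs. Of 12 listed genes 10 were measured, 4 (40.0%) were called lower and 1 (10%) higher, beside 20.6% and 21.2% of all genes, and the median log2 fold change was -0.34. POLR1C fell by 1.09 and TAF1D by 0.75 on the log2 scale. POLR1B, the second largest subunit of the enzyme, rose by 1.68, with 9046 and 9834 counts in PGCs and 2423 in ESCs (edgeR quasi-likelihood adjusted p = 0.00166). POLR1C and the listed POLR1D are also subunits of RNA polymerase III, and the listed GTF3A is a polymerase III factor. The list is thus not particular to polymerase I, whereas POLR1B belongs to that enzyme alone.

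Of 10 genes for chaperones of ribosomal proteins and of nascent chains, 7 were measured, with 3 (42.9%) called lower, 0 higher and a median of -0.49, beside 20.6% called lower over all genes. AAMP, whose yeast counterpart accompanies a large subunit protein, had 519 and 637 counts against 955 and was called lower (edgeR quasi-likelihood adjusted p = 0.0131). BTF3, a subunit of the nascent-chain complex encoded on chromosome Z, fell by 0.92.

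Of 15 listed regulators 11 were measured, with 6 (54.5%) called lower, 0 higher and a median of -0.93. Over all genes 20.6% were called lower, and over the other genes with at least 100 CPM 25.6%. MYC, a transcription factor known to raise expression of ribosomal protein genes, had 8 and 27 counts in PGCs and 2741 in ESCs, or 0.357 and 1.30 CPM against 154 CPM (log2 fold change -7.55, edgeR quasi-likelihood adjusted p = 4.66e-06). RPS6KB1, the S6 kinase, had 1536 and 1482 counts against 2960 (log2 fold change -1.25). LARP1, which binds TOP tracts, had 5440 and 6269 counts against 11362 and fell by 1.23 on the log2 scale, and MYCN, a relative of MYC, had 1546 and 2578 counts against 1179 (log2 fold change 0.54, edgeR quasi-likelihood adjusted p = 0.218). MTOR, the kinase upstream of both S6 kinase and LARP1, had 200.4 and 198 CPM in PGCs and 133 CPM in ESCs and was not called. LARP1, MYCN, MTOR and EEF1A1 were named after their values had been seen. The regulators thus did not all lie on the same side of the ESC library. Across these lists, the genes higher in PGCs at an unadjusted p under 0.05 were POLR1B, MTOR and SBDS, a biogenesis gene, and DESeq2's Wald test called POLR1B alone.

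**Figure D5:**
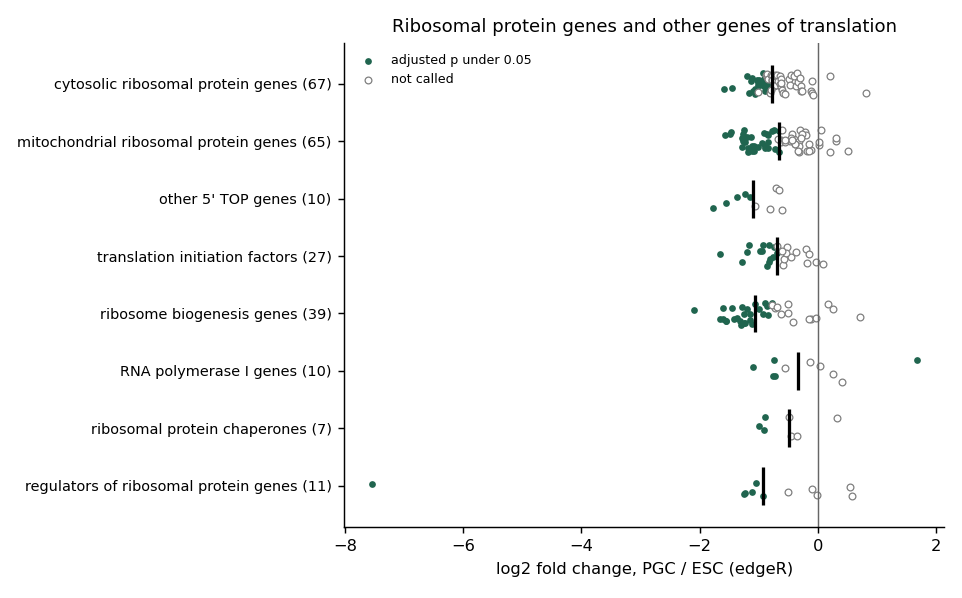
The edgeR log2 fold change of PGCs against ESCs is drawn for each gene of the cytosolic ribosomal protein set and of 7 other lists of translation genes, filled where the adjusted p is under 0.05 and open where it is not, with black lines at the medians and the number of genes measured in parentheses. Called genes lie left of 0 in every list except for POLR1B at 1.68, and the point at -7.55 is MYC.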

How the data were processed

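Total RNA from cultured PGCs and ESCs was extracted with TRIzol, and the authors aligned paired-end reads with TopHat and Bowtie 2 to the Ensembl transcripts of galGal5 and counted them per gene with featureCounts. The versions of these tools, the strand setting and the treatment of multiply mapped reads are not given in the sources used here. The study's methods name alternative sequencing providers, instruments and read lengths. Which of them applied to each library is not reported here, and their part in the differences was not tested. Per gene, the deposited table gave raw whole-number counts, not normalized, with exon coordinates for 19152 genes. The authors' second deposited table held a normalized signal per library, which equalled the count divided by 1 size factor in 100.0% of values (relative tolerance 1e-06), with fold changes and p-values from DESeq2 that were not used. It served for symbols, gene descriptions and the choice of members. A total of 4 columns of per-sample values, named as replicate 1 of PGCs and of ESCs in both tables, belong to no sample listed for the series and were not used, so a further PGC library and a further ESC library are not analysed here.

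The 14489 genes that reached 10 counts in any of the 3 libraries (4663 removed) were fitted with edgeR 4.0.16 in R 4.3.3 (TMM, quasi-likelihood F-test, group only, two-sided, Benjamini-Hochberg adjustment, call at an adjusted p under 0.05), since counts were at hand. The authors' fit included libraries not analysed here. Log2 CPM used a prior count of 2, and TPM was computed from counts and exon lengths. The test script was checked on simulated counts. Members and lists were chosen with earlier results of these data known. Values were named for the 5 highest and 5 lowest fold changes, the 3 largest differences between PGC libraries, the 3 most and 3 least abundant members by TPM, paralogs with partners, Z members, the stalk, RPL5, RPL11 and RPS27A, and the 2 highest and 2 lowest called genes of each list. Further members were named from the calls, and some genes are not reported here by name. Alternatives covered scaling, count filter, test, thresholds, prior count, TPM and leaving out each PGC library. No reference sequence of these genes was used here.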

Additional observations from a re-analysis of the deposited data

How the results depend on the processing

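The median log2 ratio of the members was negative under every alternative run, and 0 members were called higher in the alternatives that gave calls. Members with a mean log2 ratio above 0 numbered 2, but 8 with total counts, 16 with TPM and 5 without PGC replicate 2. The number called lower was 24, 27 with DESeq2 size factors, 20 with total counts, 24 with TMM factors computed without ribosomal protein and mitochondrial genome genes, 25 without the filter, 15 (of 66) among genes with at least 100 counts in every library, 40 with DESeq2's Wald test and 2 (RPS27L and RPL22L1) at an adjusted p under 0.01. All of the 24 were among the 40, and 19 among the 20. Over all 14489 genes, calls were 1766 higher and 1730 lower at an adjusted p under 0.01. The share of members called lower was thus below that of all genes there, the reverse of the order at 0.05. Lower calls over all genes numbered 2966 with DESeq2 size factors, 2063 with total counts and 2303 with DESeq2's Wald test. With at least 100 counts in every library, 1663 of 8559 genes were called higher and 1579 lower. Of all calls 50.7% were higher with TMM and 66.9% with total counts. Members lower by 2-fold or more in both PGC libraries numbered 5, but 2 with total counts, 1 with TPM, 36 at 1.5-fold and 0 at 4-fold. With a PGC library left out, 5 to 29 members were at least 2-fold lower, 0 to 1 were higher, and the median log2 ratio was -0.97 to -0.61. Counts over all genes by these fold rules are not given here for the alternatives. Total counts gave -0.47 and TPM -0.32, where the median of all genes was 0.34 and 0.49. Medians of log2 ratios in the other lists, with total counts and then TPM, were -0.34 and -0.19 for mitochondrial ribosomal proteins, -0.79 and -0.64 for TOP genes, -0.40 and -0.25 for initiation factors, -0.76 and -0.61 for biogenesis, -0.046 and 0.10 for RNA polymerase I, -0.18 and -0.028 for chaperones and -0.61 and -0.46 for regulators. The mitochondrial ribosomal protein median was -0.66 with DESeq2 size factors and -0.67 without ribosomal protein and mitochondrial genes in the TMM factors, and -0.68 to -0.67 with a PGC library left out; that of the chaperones was -0.56 to -0.48. Shares of counts outside the mitochondrial genome were 3.74%, 4.50% and 5.90%. Calls could not be recomputed with a PGC library left out, since no residual degrees of freedom remain. No paired analysis was possible because the groups share a single replicate number.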

Other observations

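Several genes annotated as ribosomal proteins fell outside the naming rule. RPL36AL was called lower, with 388 and 500.6 CPM in PGCs and 865 CPM in ESCs (log2 fold change -0.96, edgeR quasi-likelihood adjusted p = 0.0277). A gene without a symbol described as ribosomal protein L14 (ENSGALG00000043379) had a log2 fold change of -0.80 (edgeR quasi-likelihood adjusted p = 0.0620) and RPSAP58 one of -0.53. A gene without a symbol on chromosome Z described as ribosomal protein S23 (ENSGALG00000015617) had 8001 and 11497 counts in PGCs and 7432 in ESCs, with log2 ratios of -0.23 and 0.40, so that like RPS6 its PGC libraries lay on either side of the ESC library.

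The 33 genes of the mitochondrial genome that were tested had a median log2 fold change of -1.14, with 8 (24.2%) called lower and 0 higher, a share close to the 20.6% of all genes called lower. Their PGC libraries differed by a median of 0.78 on the log2 scale, with PGC replicate 3 the higher.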
